A study of Mus musculus with 4 samples.

Results

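The genes described here are Nbeal2, Wdr90, Acadvl, Rnf123, Usp19, Mib2, Cul9 and Snx5, 8 of the 1796 genes named at a deletion of 21 or more bases in lists of RNA sequence variants from the mouse bladder cancer line MBT2 and the mouse osteosarcoma line LM8. They were chosen from these same lists, as genes with many variants held by 1 list alone: 16 in Nbeal2, 9 each in Acadvl, Rnf123, Usp19 and Snx5 and 8 in Mib2 in MBT2, and 6 in Wdr90 and 5 in Cul9 in LM8. Those counts, and the lines they favour, are a description of the choice and support nothing. A deletion was taken as long when its reference allele exceeded the alternative by 21 or more bases, and it was assigned to the gene symbol in the list's effect annotation. By this rule the 8 genes had 67 of the 2023 long deletions of MBT2 and 27 of the 1633 of LM8, or 83 different ones of 2911, of which 11 stood in both lists.

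The series set out to compare the mutation load of the lines, and RNA of each line was taken in duplicate from cultures with no added treatment. MBT2 (clone label 63) grew in RPMI-1640 with 10% serum and 1% penicillin/streptomycin, and LM8, which carries no clone label, in MEM with 10% serum, 1% penicillin/streptomycin and 24 mM HEPES. Both lines are syngeneic with C3H/HeN mice, so differences of that strain from the reference genome can stand in both lists. Poly(A) RNA was made into strand-specific libraries and read in pairs of 75 bases, giving 2 libraries per line, and the labels leave it unstated whether a line's pair came from more than 1 culture. The p-values then measure only the spread between these samples, which may be technical. By the labels the groups differ in line, medium and clone label, and these cannot be told apart. The lists hold no expression values: of the fixed markers, 0 of 15 urothelial and epithelial genes had a listed variant in either line, 1 of 12 osteoblast and mesenchymal genes had one in MBT2 and 3 of 12 in LM8, and 0 of 6 markers of other cells had one, so the labelled cell types could not be checked.

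An intron is cut out of a transcript between a donor site, nearly always GT and at a minority of introns GC, and an acceptor site ending in AG. When RNA reads are laid on a genome, a spliced intron leaves a gap, while a read from unspliced RNA, from DNA, or from a transcript of the other strand runs through it. Each site is therefore described here by its reference-read share, the percentage of reads at the deletion that kept the reference bases. The genes have unrelated roles. Nbeal2 encodes a BEACH-domain protein needed for the alpha granules of platelets, Wdr90 a WD-repeat protein of centrioles, and Acadvl the very long-chain acyl-CoA dehydrogenase that begins mitochondrial fatty acid oxidation. Rnf123 and Mib2 encode ubiquitin ligases, Mib2 one that acts on Notch ligands, Usp19 a deubiquitinase, Cul9 a cullin that binds p53, and Snx5 a sorting nexin of endosomes.

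The deleted bases of all of them but Snx5 began and ended like introns when read on 1 of the strands. Shown first are the shortest listed introns of Nbeal2 and Wdr90, on the strand of the gene at GRCm39 positions, with the donor and acceptor letters in capitals. Where a printed deletion was shifted from its listed position, its end bases are inferred from the shift and were not read from the genome.
Nbeal2 68 bases, chr9:110456992-110457059, strand -: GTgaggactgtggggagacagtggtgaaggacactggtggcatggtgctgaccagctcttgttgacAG
Wdr90 66 bases, chr17:26074209-26074274, strand -: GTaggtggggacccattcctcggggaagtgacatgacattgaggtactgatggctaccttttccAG
Of the 63 different deletions that were annotated introns of the gene named, 59 had GT and AG at their ends and 4 had GC and AG. The 4 with GC lay in 4 different genes and are printed because that donor is the rarer one.
Nbeal2 87 bases, chr9:110461271-110461357, strand -: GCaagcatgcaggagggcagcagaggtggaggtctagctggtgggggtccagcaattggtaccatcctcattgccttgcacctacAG
Acadvl 88 bases, chr11:69903910-69903997, strand -: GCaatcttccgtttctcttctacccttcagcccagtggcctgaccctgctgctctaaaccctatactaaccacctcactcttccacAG
Mib2 74 bases, chr4:155741772-155741845, strand -: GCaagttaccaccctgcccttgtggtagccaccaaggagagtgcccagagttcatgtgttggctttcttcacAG
Wdr90 73 bases, chr17:26070733-26070805, strand -: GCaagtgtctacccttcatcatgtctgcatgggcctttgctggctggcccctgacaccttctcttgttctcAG
Among the deletions that matched an intron of the gene named, by length and end letters, GC donors were 4 of 51 in MBT2 (7.84%) and 1 of 24 in LM8 (4.17%) for these genes, against 9 of 1236 (0.728%) and 13 of 1027 (1.27%) for all other genes. With so few sites and with members chosen from the data, nothing particular to these genes follows from that count.

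Most of the deletions were annotated introns, though not always of the gene named. In MBT2, 51 of 67 deletions (76.1%) had the length of an annotated intron of the named gene together with splice-site letters, and in LM8 24 of 27 (88.9%). The same held for 1236 of 1956 long deletions of all other genes in MBT2 (63.2%) and 1027 of 1606 in LM8 (63.9%). When the spacing between neighbouring introns had to fit as well, 48 MBT2 deletions were introns of the gene named, 14 were introns of a neighbouring gene and 5 matched no annotated intron. In LM8 the counts were 24 introns of the gene named, 0 of a neighbour and 3 with no match. The lists called a neighbour's introns upstream variants, apart from 1 at Acadvl called a frameshift. All 7 upstream deletions of Rnf123 were introns 4, 5, 6, 9, 11, 12 and 16 of Mst1. That gene encodes macrophage-stimulating protein, and its annotated span overlaps that of Rnf123 on the other strand. All 10 Usp19 deletions of MBT2 were listed as upstream, those inside the gene too, and 6 of them were introns 20, 21, 22, 27, 29 and 32 of Lamb2, which encodes laminin beta-2. A gene symbol in these lists is thus the annotation's choice, and 13 of the 21 MBT2 deletions counted under Rnf123 and Usp19 belong to other transcripts.

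The genes differed in how much of their intron set was listed. Mib2 had 12 of its 18 annotated introns listed, and 12 of its 13 introns of up to 200 bases. Wdr90 had 15 of 40 listed, all among its 24 introns of up to 200 bases, with 9 in MBT2, 10 in LM8 and 4 in both. Nbeal2 had 14 of 53, Acadvl 8 of 19, Rnf123 5 of 38, Cul9 4 of 41 and Usp19 3 of 26. Listed introns were short: their median length was 88 bases in Nbeal2, against 173 bases for its unlisted introns, 89 against 266 in Wdr90 and 91 against 1114 in Mib2. The gap was small in Acadvl, at 88 against 99 bases, and in Usp19, at 101 against 106. The longest listed deletion was 200 bases, intron 19 of Usp19 in LM8, and over all other genes the longest was 230 bases in MBT2 and 263 in LM8. The last 6 introns of Acadvl, 14 to 19, were all listed in MBT2, and in LM8 only intron 7 was. An unlisted intron is not an unspliced one, since the lists hold only sites that passed the caller's filters, which allowed at most 2 events in a region. Median deleted length was 84 bases (quartiles 79 and 95) for the 67 MBT2 deletions and 89 bases (78 and 117) for the 27 LM8 deletions, against 93 and 94 bases for other genes.

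**Figure D1:**
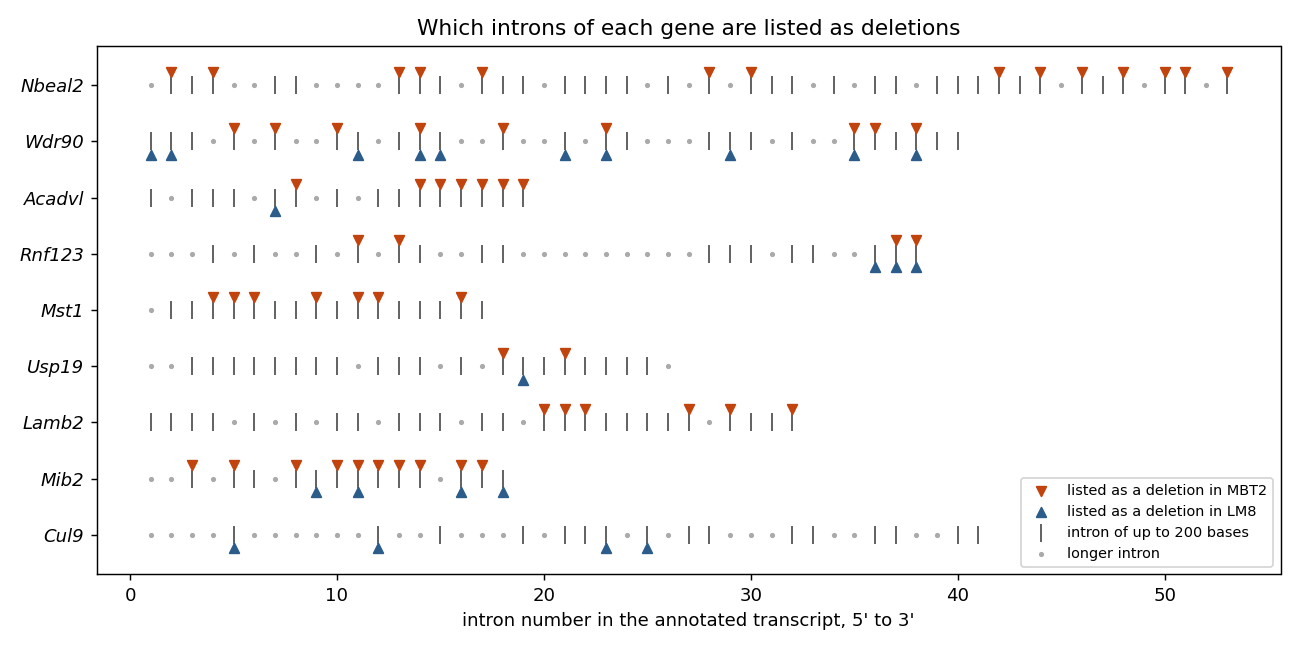
Intron number in 1 annotated transcript per gene (horizontal axis) for 7 of the chosen genes and the neighbours Mst1 and Lamb2; ticks are introns of up to 200 bases, grey dots longer ones, and triangles mark introns listed as deletions in MBT2 (above the row) and LM8 (below it). Listed introns fall on ticks in every row, and Mib2 has all but 1 of its 13 ticks marked.

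Reads at these sites fell into 2 classes. In MBT2, 59 of 67 deletions had a reference-read share under 50%, with a range of 2.08% to 27.4% and a median of 11.0%, and the other 8 lay between 80.7% and 98.2%. In LM8, 23 of 27 were under 50%, from 0% to 29.2% with a median of 12.8%, and 4 lay between 85.0% and 95.2%. No site of these genes lay between 30% and 80%, a range that held 59 of the 1956 sites of other genes in MBT2 (3.02%) and 43 of 1606 in LM8 (2.68%). That range lies just inside the gap of these genes, from 29.2% in LM8 to 80.7% in MBT2, so nothing particular to them follows from the 0. All 59 and all 23 sites of the lower class were annotated introns, against 3 of 8 and 1 of 4 of the upper class. Over all sites the median share was 12.6% in MBT2 and 13.3% in LM8 for these genes, and 13.4% and 12.5% for other genes.

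**Figure D2:**
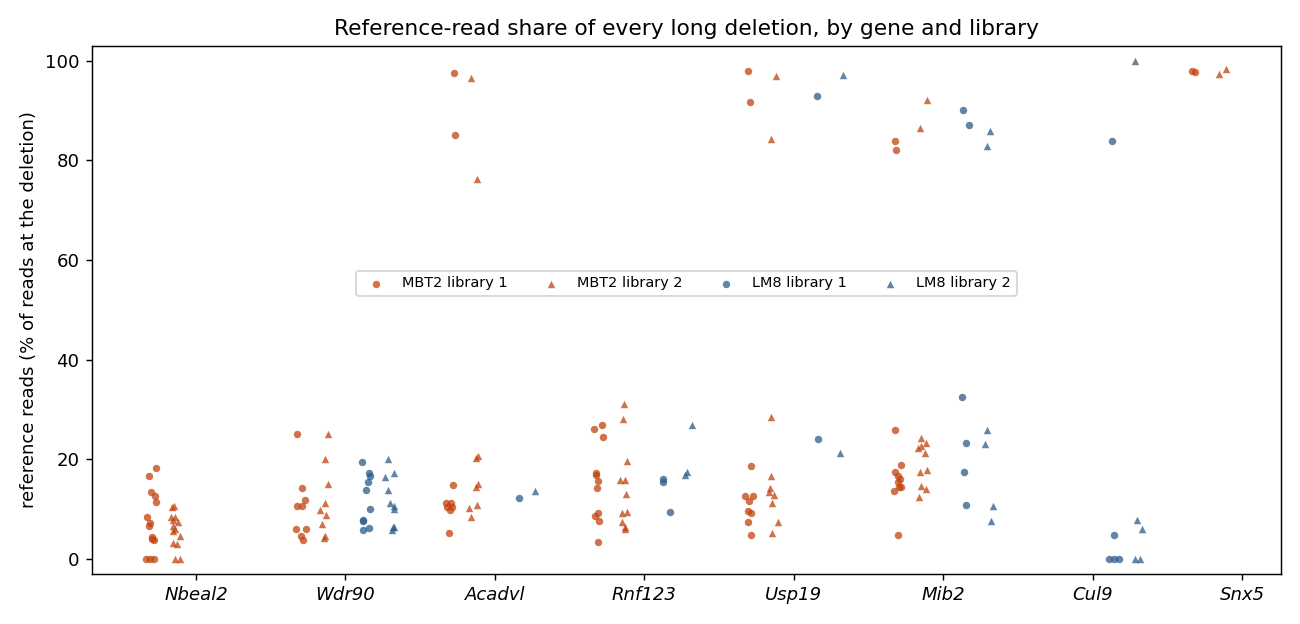
Reference-read share of each long deletion (vertical axis, % of reads at the deletion) by gene, with circles for library 1 and triangles for library 2 of MBT2 (left) and LM8 (right). Points lie at 32.6% or less or at 76.4% or more, and both Snx5 deletions lie at 97.3% or more in each library.

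**Figure D3:**
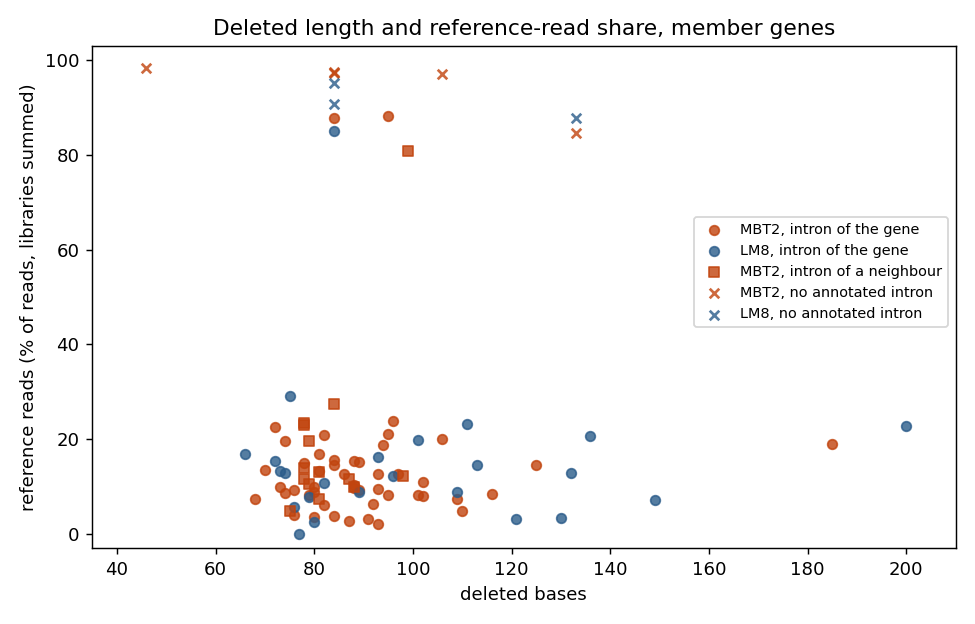
Deleted length (horizontal axis, bases) against the reference-read share of summed reads (vertical axis, %), for MBT2 and LM8; circles are introns of the gene named, squares introns of a neighbour and crosses deletions with no annotated intron. Every cross lies at 84.7% or more, and lengths overlap between the upper and the lower class.

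Nbeal2 had 14 long deletions, the highest number of any gene in the MBT2 list, all in MBT2 and all introns of its own, and its median share over sites, 6.86%, was below the 9.43% of Wdr90, the next lowest of these genes in that list. At intron 48, the deepest, library 1 had 5 reference and 39 deletion reads and library 2 had 4 and 34, a summed share of 11.0% (5.14% to 19.8%; here and below, ranges in brackets after a share are exact Clopper-Pearson 95% intervals, which cover counting error only). Intron 46 had the highest share, 13.2% of 53 reads (5.48% to 25.3%), and intron 14 the lowest, 2.08% of 48 reads (0.0527% to 11.1%). Depth was low, at 27 to 82 reads per site. Along the gene, the 7 listed introns from 42 to 53 had shares of 7.46% to 13.2%, and the 7 from 2 to 30 had 2.08% to 6.25%. That split was chosen after the values were seen. Summed over sites, introns 42 to 53 stood at 12.0% of 208 reads in library 1 and 7.24% of 221 in library 2, and introns 2 to 30 at 3.08% of 130 and 4.61% of 152. Both libraries gave the order with the 3′ introns higher, and in library 2 the intervals of the summed shares (4.19% to 11.5% and 1.87% to 9.26%) overlapped. Such intervals take the reads as independent. As 1 fragment can be counted at more than 1 neighbouring intron, they may be too narrow. LM8 had no listed variant in Nbeal2, which says nothing of its level there.

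Wdr90 was the gene most evenly listed, with 9 deletions in MBT2 and 10 in LM8, all introns of its own. Shares ran from 4.08% to 22.5% in MBT2 and from 5.75% to 19.8% in LM8, and the summed share over sites was 12.0% of 694 reads and 11.9% of 873 reads. Intron 38, of 72 bases, was the deepest in both lines and the highest in MBT2, with 15 of 60 and 12 of 60 reference reads in the MBT2 libraries and 10 of 72 and 9 of 52 in the LM8 libraries. Intron 14, of 76 bases, was the lowest in both, with 3.70% and 4.55% in MBT2 and 5.71% and 5.77% in LM8. The highest in LM8 was intron 1, of 101 bases, at 19.8% of 86 reads (12.0% to 29.8%). Intron 14 thus stood lowest in both lines, in lists that share a reference and a caller.

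Acadvl had 9 long deletions in MBT2 and 1 in LM8. Its 7 own introns in MBT2 had shares of 8.24% to 15.6%, the lowest at intron 14 with 4 of 77 reads in library 1 and 10 of 93 in library 2. In LM8, intron 7 had 15 of 122 and 13 of 96 reference reads, a share of 12.8% (8.71% to 18.0%). The other 2 MBT2 deletions had the splice letters of the opposite strand. One of 99 bases was intron 15 of Dvl2, a Wnt pathway scaffold gene that overlaps Acadvl, and it had GT and AG only when read on the strand of Dvl2. It overlapped intron 17 of Acadvl, as the pair of sequences shows, each on its own strand.
Acadvl 78 bases, chr11:69901597-69901674, strand -: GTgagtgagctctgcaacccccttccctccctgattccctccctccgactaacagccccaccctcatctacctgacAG
Acadvl 99 bases, chr11:69901604-69901702, strand +: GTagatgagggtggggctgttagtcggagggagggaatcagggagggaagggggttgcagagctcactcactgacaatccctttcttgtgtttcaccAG
The 99-base deletion was carried by 8 and 13 reads in the MBT2 libraries, against 63 and 96 for the 78-base deletion of Acadvl. All 9 of its reads with a recorded orientation came from the strand of Dvl2. The deepest Acadvl site, a deletion of 106 bases with a share of 97.0% of 268 reads (94.2% to 98.7%), also had splice letters only on the strand of Dvl2 and was no annotated intron. Its deleted bases stand in annotated exons of Dvl2. It overlapped the 79-base intron 14 of Acadvl, which 156 reads carried as a deletion, so its share is not that of a kept stretch. Its oriented reference reads were 75 and 78 on the strand of Acadvl and 0 and 1 on that of Dvl2. None of its 8 deletion reads had a recorded orientation.

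Under Rnf123, 4 of the 11 MBT2 deletions and all 3 of LM8 were its own introns. Their shares were 8.47% to 19.7% in MBT2 and 12.8% to 20.7% in LM8. The deepest was intron 37 in MBT2, with 22 of 128 reference reads in library 1 and 15 of 165 in library 2, and intron 36 in LM8, of 136 bases, with 17 of 106 and 22 of 82. The Mst1 introns counted here spanned a wider range, from 7.33% of 150 reads at intron 6 to 27.4% of 164 at intron 4. At intron 12 of Mst1 the MBT2 libraries stood apart most, with 5 of 66 reference reads against 22 of 71.

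Usp19 carried an alternative acceptor. In MBT2 a deletion of 86 bases, its intron 18, overlapped one of 95 bases that another annotated Usp19 transcript holds, with the same donor and the acceptor 9 bases downstream. Both are printed to show the repeated AG near the end.
Usp19 86 bases, chr9:108375236-108375321, strand +: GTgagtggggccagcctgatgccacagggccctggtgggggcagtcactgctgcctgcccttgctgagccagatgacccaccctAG
Usp19 95 bases, chr9:108375236-108375330, strand +: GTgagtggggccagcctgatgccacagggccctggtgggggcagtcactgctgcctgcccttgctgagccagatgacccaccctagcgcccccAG
The 95-base form was carried by 21 reads in library 1 and 38 in library 2 of MBT2, against 215 and 184 reads with the 86-base form. It made up 12.9% of the 458 deletion reads of both forms (9.95% to 16.3%), at 8.90% and 17.1% in the libraries. Its reference-read share was 88.2% of 499 reads, but a reference read there is any read without the 95-base deletion, which takes in reads of the 86-base form. For the same reason the shares of other overlapping deletions are not shares of kept introns. The share at the 86-base form was 12.7% of 457 reads (9.78% to 16.1%), with 31 of 246 and 27 of 211 reference reads. Of the other Usp19 introns, 21 stood at 8.26% of 218 reads in MBT2 and 19 at 22.8% of 158 reads in LM8. The Lamb2 introns counted under Usp19 in MBT2 had shares from 4.95% at intron 20 to 23.5% at intron 29. A deletion of 84 bases in both lists had GT and AG ends and matched no annotated intron.
Usp19 84 bases, chr9:108377206-108377289, strand +: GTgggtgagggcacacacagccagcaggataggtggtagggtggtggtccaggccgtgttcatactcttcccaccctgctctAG
It was the deepest site of these genes, with 6 of 281 and 10 of 322 deletion reads in the MBT2 libraries and 15 of 215 and 6 of 218 in the LM8 libraries.

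Mib2 had 12 long deletions in MBT2 and 6 in LM8, and its introns spread widely within the lower class. In MBT2 they ran from 8.59% of 128 reads at intron 10, the one with the GC donor, to 23.9% of 113 reads at intron 11. In LM8 they ran from 10.7% of 272 reads at intron 16 to 29.2% of 260 at intron 9, of 75 bases, where the libraries had 42 of 129 and 34 of 131 reference reads. Its deepest site in MBT2 was intron 3, with a share of 14.6% of 158 reads. Both lists held 2 more deletions carried by few reads. One of 133 bases had splice letters and no annotated intron, and the other, of 84 bases, is intron 1 of another annotated Mib2 transcript.
Mib2 133 bases, chr4:155743447-155743579, strand -: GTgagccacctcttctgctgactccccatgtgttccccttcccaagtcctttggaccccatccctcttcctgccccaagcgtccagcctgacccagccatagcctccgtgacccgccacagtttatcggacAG
Mib2 84 bases, chr4:155753188-155753271, strand -: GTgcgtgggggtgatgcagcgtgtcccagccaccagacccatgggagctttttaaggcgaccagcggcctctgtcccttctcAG
The 133-base deletion was in 7 of 39 and 8 of 59 reads of the MBT2 libraries and in 6 of 61 and 11 of 78 reads of the LM8 libraries. The 84-base deletion was in 9 of 56 and 4 of 51 reads in MBT2 and in 18 of 139 and 23 of 134 in LM8, the deepest Mib2 site there.

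Cul9 had variants in the LM8 list alone, with 5 deletions at 24 to 43 reads each. Its 4 annotated introns, 5, 12, 23 and 25, had 1, 0, 1 and 1 reference reads in all, and the 24 reads at intron 12 allow a share of up to 14.2% by the exact interval. Intron 25, of 80 bases, overlapped a deletion of 84 bases with the same donor and its acceptor 4 bases downstream.
Cul9 80 bases, chr17:46830858-46830937, strand -: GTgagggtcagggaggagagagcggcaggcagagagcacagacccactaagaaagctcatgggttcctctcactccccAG
Cul9 84 bases, chr17:46830854-46830937, strand -: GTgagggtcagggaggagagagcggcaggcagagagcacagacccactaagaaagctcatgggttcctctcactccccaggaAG
The longer form was in 4 reads of library 1 and 0 of library 2, against 20 and 18 reads with the shorter form, or 9.52% of 42 deletion reads (2.66% to 22.6%). Such a shift of 4 bases changes the reading frame, and the shift of 9 bases in Usp19 keeps it.

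Snx5 does not bear out the description as intron-length deletions. Its 2 long deletions, both in MBT2 and listed as upstream, had no splice letters on either strand at right shifts of up to 8 bases. They matched no annotated intron and were found whole in a processed pseudogene, Gm11688.
Snx5 46 bases, chr2:144103230-144103275, strand -: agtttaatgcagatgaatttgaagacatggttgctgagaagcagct
Snx5 84 bases, chr2:144103280-144103363, strand -: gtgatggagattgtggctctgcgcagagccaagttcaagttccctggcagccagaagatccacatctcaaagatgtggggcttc
The deletions were in 2 of 101 and 2 of 127 reads (46 bases) and in 3 of 131 and 4 of 148 reads (84 bases) of the MBT2 libraries. Reads of near-identical copies elsewhere can be counted here, so these values are uncertain. Snx5 owed most of its listed variants to other types: 7 in MBT2, among them an insertion of 58 bases at a splice acceptor in 20 of 176 reads, whose bases stand in annotated Snx5 transcripts, a splice donor substitution C>G in 5 of 62 reads, the missense change A86T in 4 of 297 and 4 upstream T>C changes in 7.07% to 22.1% of reads. Apart from Snx5, the genes had 3 variants that were not long deletions, the synonymous changes L2272 in 2 of 56 reads and H1607 in 2 of 32 of Nbeal2 in MBT2, and M438L of Acadvl in 6 of 318 reads in LM8. Each of these 3, and A86T, was read in 1 library of its line.

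At the 11 sites in both lists, no difference between the lines passed the test. limma on log2((reference reads + 0.5)/(deletion reads + 0.5)) per library, fitted over all 745 long deletions in both lists with Benjamini-Hochberg adjustment, called 12 sites (1.61%) at an adjusted p under 0.05, 10 of them with a higher ratio in MBT2 and 2 with a lower one, and 0 of the 11. That split also moved when 1 library was left out. A fit of all 1261 shared variants, counted over variants of any kind, called 8, with 4 higher and 4 lower in MBT2. Of the 12 sites, 5 stayed called there. At an unadjusted p under 0.05 the fit of the 745 sites took 110 (14.8%) and 1 of the 11. The median log2 ratio of MBT2 over LM8 was 0.38 over the 11 sites and 0.21 over all 745, with 6 of the 11 above 0. The median of the 11 fell below that of all sites without MBT2 replicate 2 (0.064 against 0.21), without LM8 replicate 1 (0.12 against 0.18) and without LM8 replicate 2 (0.15 against 0.26). Library shares did not overlap between the lines at 5 of the 11 sites, and at 333 of 745 (44.7%) over all.

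Mib2 held the sites nearest to the threshold. At intron 16, reference reads were 16.7% and 24.3% of reads in the MBT2 libraries and 10.7% and 10.6% in the LM8 libraries. Both MBT2 libraries were higher than both LM8 libraries, with a log2 ratio of 1.09 (SE 0.46, limma, adjusted p = 0.272, and 0.0658 to 0.674 over the alternatives). At intron 11 the shares were 25.8% and 21.3% in MBT2 and 17.4% and 7.53% in LM8, again without overlap (log2 ratio 1.20, SE 0.59, limma, adjusted p = 0.393, and 0.110 to 0.747 over the alternatives). That ratio was 1.86 without LM8 replicate 1 and 0.54 without LM8 replicate 2. The shares at the 133-base deletion of Mib2 overlapped between the lines, at 82.1% and 86.4% in MBT2 and 90.2% and 85.9% in LM8. So did those at its 84-base deletion, at 83.9% and 92.2% in MBT2 and 87.1% and 82.8% in LM8.

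For Wdr90, 3 of the 4 shared introns did not overlap between lines and they did not point the same way. Intron 38 was higher in MBT2, as given above, while intron 23 had 10.6% and 8.82% in MBT2 and 16.7% and 11.1% in LM8, and intron 14, with the values given above, was also lower in MBT2 but turned to a log2 ratio of 0.16 with 2 reads added in place of 0.5. Intron 35 had 4.55% and 9.80% in MBT2 and 6.25% and 10.6% in LM8. Their adjusted p-values from limma were 0.701, 0.795, 0.929 and 0.898. Rnf123 intron 38 had 24.5% and 15.7% in MBT2 and 9.47% and 16.9% in LM8, and intron 37 had 17.2% and 9.09% in MBT2 and 15.4% and 17.4% in LM8 (adjusted p = 0.616 and 0.716). The 84-base Usp19 deletion had reference shares of 97.9% and 96.9% in MBT2 and 93.0% and 97.2% in LM8 (adjusted p = 0.456). With errors of this size, a p that misses the threshold does not show that the lines were alike, and with 2 libraries a line an exact permutation test of 1 site cannot go below p = 0.333.

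**Figure D4:**
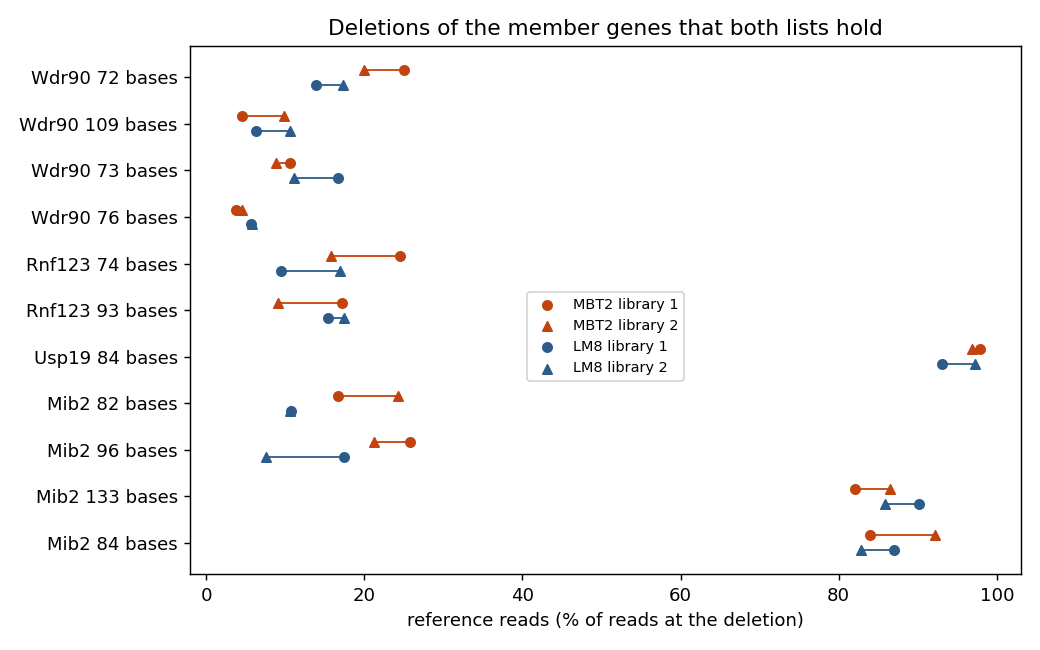
Reference-read share (horizontal axis, % of reads) at the 11 deletions of these genes in both lists, by library, with MBT2 above LM8 in each row and a line joining the libraries of a cell line. The libraries of the lines do not overlap in 5 rows, which are the 72-, 73- and 76-base deletions of Wdr90 and the 82- and 96-base deletions of Mib2.

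No difference between the duplicate libraries of a line passed the test. Fisher's exact test of library 1 against library 2 (two-sided, Benjamini-Hochberg over the list) called 0 of 2023 long deletions in MBT2 (0.0%) and 0 of 1633 in LM8 (0.0%), and took 102 (5.04%) and 94 (5.76%) at an unadjusted p under 0.05. Among the sites of these genes it took 3 of 67 in MBT2 and 1 of 27 in LM8, near those shares. They were intron 12 of Mst1 (exact p = 5.53e-04, adjusted p = 0.280), intron 13 of Rnf123 (exact p = 0.0193), the 95-base form of Usp19 (exact p = 0.0121) and, in LM8, the 84-base Usp19 deletion (exact p = 0.0457).

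A minority of reference reads, and almost no deletion reads, came from the strand opposite to the gene. The libraries kept strand, and the lists give the read-pair orientation for 3979 of 6356 deletion reads and 1637 of 3006 reference reads of these genes in MBT2, and for 1561 of 2439 and 661 of 1233 in LM8. At annotated introns, 1 of 3950 oriented deletion reads in MBT2 and 0 of 1527 in LM8, which allows up to 0.241%, came from the strand opposite to the intron's gene. Of reference reads, 139 of 784 in MBT2 (17.7%, 15.1% to 20.6%) and 14 of 269 in LM8 (5.20%, 2.87% to 8.58%) did. At introns of other genes the shares were 8.40% of 35167 reads in MBT2 and 1.69% of 28156 in LM8. The pooled shares of the chosen genes depend much on 1 site per line. Of the 784 reads, 332 lay at the 95-base Usp19 deletion, and of the 269, 101 lay at the 84-base Mib2 deletion. Neither site had an opposite-strand reference read, so both lower the pooled shares. The intervals of reads pooled over introns take them as independent and may be too narrow, since 1 fragment can be counted at neighbouring introns.

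Opposite-strand reference reads were unevenly spread. In MBT2 they were 39 of 55 at the introns of Acadvl (70.9%), 12 of 21 at Nbeal2 (57.1%), 54 of 136 at Mib2 (39.7%), 12 of 43 at Rnf123 (27.9%), 14 of 75 at Mst1 (18.7%), 7 of 7 at the Dvl2 intron inside Acadvl, 1 of 48 at Lamb2, 0 of 358 at Usp19 and 0 of 41 at Wdr90. For comparison, 41 of 433 other genes with at least 10 such reads had over 25% in MBT2 (9.47%), and 312 had none. In LM8 the counts were 14 of 32 at Rnf123 and 0 of 168 at Mib2, 0 of 50 at Wdr90, 0 of 11 at Usp19, 0 of 7 at Acadvl and 0 of 1 at Cul9. Such a 0 was the usual value there, at 292 of 332 other genes, and 10 (3.01%) had over 25%. By the exact 95% interval, the 0 of 168 at Mib2 in LM8 allows a share of up to 2.2%, and the 0 of 7 at Acadvl one of up to 41.0%. Of the 358 reads at Usp19 in MBT2, 332 lay at the 95-base site, where reads of the 86-base form count as reference. The bases of 5 of the 8 listed Acadvl introns stand in annotated exons of Dvl2, and those of 3 of the 5 Rnf123 introns in exons of Gmppb, a sugar-nucleotide enzyme gene, each on the opposite strand. At Acadvl the opposite-strand reads in MBT2 did not follow that division. They were 0, 6, 8, 5 and 7 at introns 14, 15, 16, 18 and 19, inside Dvl2 exons, and 5 and 8 at introns 8 and 17, outside them. The LM8 value of Acadvl comes from intron 7 alone, which MBT2 does not list. The annotated spans of Rnf123 and Mst1 overlap on opposite strands too, though 0 of the 7 listed Mst1 introns stand in opposite-strand exons. No annotated gene overlaps Nbeal2 or Mib2 on the opposite strand. The Mib2 counts come from 11 introns in MBT2 and 5 in LM8. At the 3 Mib2 introns in both lists, opposite-strand reads were 12 of 40 and 4 of 35 in the MBT2 libraries (21.3% in all) and 0 of 62 and 0 of 54 in the LM8 libraries, a difference that was not given a test.

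**Figure D5:**
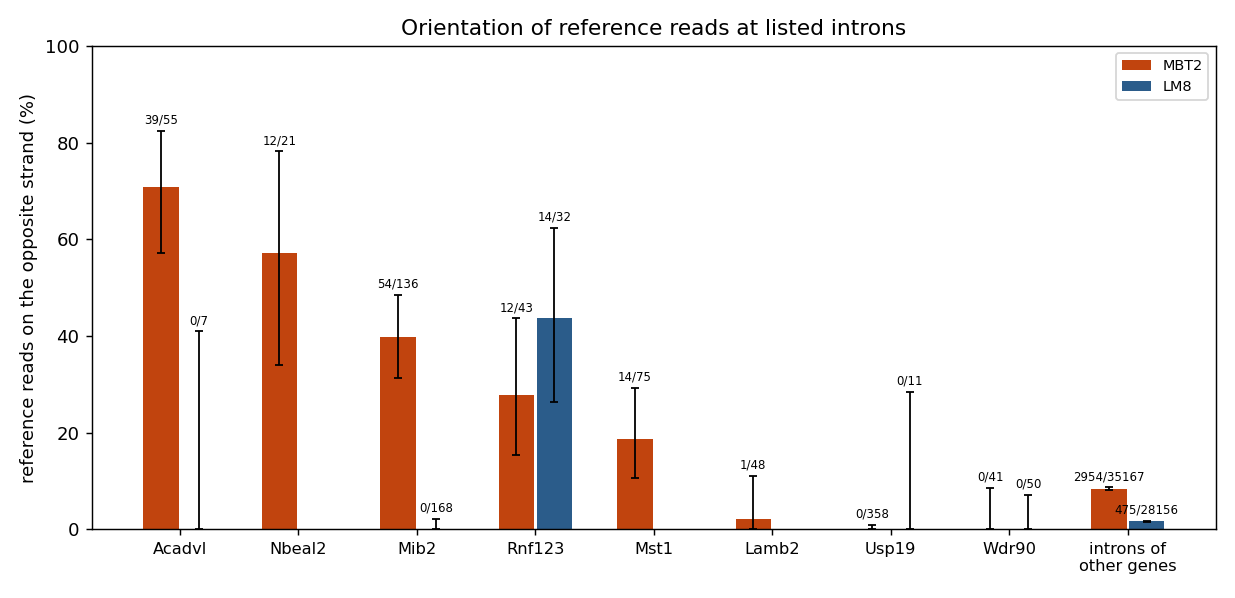
Percentage of oriented reference reads on the strand opposite to the intron's gene (vertical axis), by gene, with MBT2 left of LM8; whiskers are exact 95% intervals and labels give the counts. Acadvl, Nbeal2 and Mib2 in MBT2 lie well above the 8.40% of other genes, while Usp19 and Wdr90 stand at 0. The intervals take reads pooled over neighbouring introns as independent, which they may not be.

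These reads bear on the shares given above. Counting only oriented reads on the intron's own strand, the share at Nbeal2 was 2.49%, against 5.61% for oriented reads of both strands, and at Acadvl in MBT2 2.01% against 6.56%. Over the 3 Mib2 introns in both lists, which take in the 84-base intron 1 with its high share, it was 34.7% against 40.3% in MBT2 and 26.8% either way in LM8. At intron 16 of Mib2, MBT2 had 7 own-strand reference reads beside 54 own-strand deletion reads, and LM8 had 5 beside 189, with 7 more reference reads on the opposite strand in MBT2 and 0 in LM8. In a fit of own-strand reads alone, chosen after the data were seen, limma called 0 of 745 sites, with 77 at an unadjusted p under 0.05, and the log2 ratio of intron 16 was 2.12 (adjusted p = 0.320). The part of RNA of the opposite strand, of DNA or of read pairing in these reads was not tested.

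Fragments that carried a deletion spanned more of the genome. The caller's median fragment length was larger for deletion reads than for reference reads at 47 of 48 own introns in MBT2 and 22 of 24 in LM8, with medians over sites of 633.5 and 328 bases in MBT2 and 556.5 and 327.5 in LM8. The LM8 values take in intron 12 of Cul9, which had 0 reference reads and a recorded reference length of 0, so that intron shows nothing. Some introns of Nbeal2 and Cul9 rested on 1 reference read. A gap adds its skipped bases to the span of a fragment, so this direction largely follows from what a deletion read is. The same direction held at 13 of 14 introns of a neighbour in MBT2 and at 6 of 8 records with no annotated intron. Other genes were not examined for it. Beside length, the deleted bases had a median GC content of 57.7% in MBT2 and 57.9% in LM8, against 56.6% and 56.6% for other genes. The annotation called 28 of the 67 MBT2 deletions frameshifts, 18 splice acceptor changes and 19 upstream variants, and 11, 13 and 2 of the 27 in LM8. Of the 63 different own introns, 19 had a length divisible by 3.

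Genes outside the chosen set had similar lists. Those with the most long deletions in MBT2 were Kmt2b with 11, Fhod1, Recql4 and Zfp335 with 9 each and Mapk8ip3 with 8. In LM8 they were Recql4 with 9, Capn15 and Map4k2 with 8 each, Mapk8ip3 with 7 and Plxna3 with 6. Their median shares ran from 9.71% to 13.7% in MBT2 and from 4.76% to 11.7% in LM8. Several chosen genes had fewer long deletions than some or all of these. In MBT2, Usp19 with 10, Acadvl and Wdr90 with 9 each and Snx5 with 2 stood below Kmt2b. In LM8, Cul9 with 5, Rnf123 with 3, Usp19 with 2 and Acadvl with 1 stood below Plxna3. Among all genes with a long deletion, 961 of 1323 in MBT2 (72.6%) and 839 of 1130 in LM8 (74.2%) had just 1. Of 50 splicing factor genes, 33 had a listed variant of any kind in MBT2 and 27 in LM8, and 11 and 10 had a long deletion. Over all genes with a listed variant, 33.6% and 32.3% had one.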

How the data were processed

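Variants were listed in messenger RNA of 2 cell lines with 2 libraries each. Reads were aligned to GRCm39, with bcl2fastq 2.17.1.14, cutadapt 1.9.1, STAR 2.7.9a and GATK 4.3.0 named without roles in the submitters' processing notes. Per the file headers, Mutect 2.2 called both libraries of a line jointly, GATK 4.1.5.0 filtered the calls and SnpEff 5.1d annotated 1 effect each (database 105). The deposited unit is a composite cell with reads per allele and orientation, and the authors gave no depth beyond listed sites. At long deletions these genes had 4481 and 4881 reads in the MBT2 libraries and 1849 and 1823 in the LM8 libraries, summed over sites. Single shares are less certain. In MBT2 the exact interval was 9.78% to 16.1% at the 86-base Usp19 deletion and 5.48% to 25.3% at intron 46 of Nbeal2.

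Deletions are placed by the caller at their leftmost position. End letters were read after a right shift of up to 8 bases. No genome sequence was at hand, so a shift was not checked against the bases that follow the deletion. Introns came from GENCODE M21, which is GRCm38, by length, end letters and the spacing between introns within 40 kb, and no coordinate was converted. The line difference was to be tested with a count model, but the composite unit is not a count column, so limma 3.58.1 in R 4.3.3, planned as an alternative, became the test, with the variance trend on depth. It was tested on simulated data, and refitted with all 1261 shared variants, another prior, other filters, a replicate block and each library left out. Fisher's exact tests and intervals used scipy 1.17.1 in Python 3.11.15. Named sites are the deepest, lowest and highest of each gene and list, all sites in both lists and those past a threshold. The overlapping pairs, GC introns, Nbeal2 split and sites with no annotated intron were picked after their values were seen. Members and lists were chosen with earlier results of these data known.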

Additional observations from a re-analysis of the deposited data

How the results depend on the processing

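The number of the 745 shared sites called by limma, 12, was 57 with 2 reads added in place of 0.5, 50 with the replicate number as a block, 62 with precision weights, 80 with Fisher's exact test on summed reads and 0 with own-strand reads only, the weights and the strand being choices made after the data were seen. The fit of all 1261 shared variants called 8 of the 1261, counted over variants of any kind, and 5 of the 12 sites stayed called. Leaving out 1 library gave 1 to 12 calls (7 without MBT2 replicate 2, 1 without LM8 replicate 1, 4 without LM8 replicate 2). That a lone library varies like the others is assumed there. The duplicates share only a number: the correlation of same-numbered deviations was -0.077 over 745 sites. The DESeq2 and edgeR alternatives were not run, since each column holds composite cells and not single counts. The reads per allele inside those cells are counts, so this was a choice. In every fit run, 0 of the 11 shared sites of these genes was called, while 6 of their 132 alternative values changed sign. The log2 ratio of MBT2 over LM8 turned to 0.16 at the 76-base Wdr90 deletion with 2 reads added and to 0.12 at the 93-base Rnf123 deletion with own-strand reads. Without 1 library it ranged from -0.81 to 0.20 at the 109-base Wdr90 deletion, from -0.16 to 0.92 at the 84-base Mib2 deletion and from -0.97 to 0.064 at the 93-base Rnf123 deletion. The median reference-read share over sites, 12.6% in MBT2 and 13.3% in LM8, was 13.1% and 14.9% with at least 20 reads in every library, 12.5% to 13.0% and 13.8% to 15.4% without 1 library of the line, 11.6% in MBT2 over annotated introns alone, and 4.84% and 7.63% for own-strand oriented reads (the cause was not tested). Counts of deletions and of intron matches stayed within 1.5 times under the alternatives run. Depth limits Cul9 and Nbeal2 most.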
